A study of Rattus norvegicus with 8 samples.

Results

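7 genes of ribosome assembly, ribosome structure, ribosome recycling and S6 kinase signalling were followed in rats at the age of 6 months, in the medial prefrontal cortex (mPFC). They are the assembly factors Gnl2 and Dnajc21 (Gs3 in the authors' sheets), the small-subunit proteins Rps15, Rps15a and Rps26, the recycling factor Abce1 and the kinase Rps6kb1. Each was measured by 1 of the 450 probes that the authors listed as differing between the groups, and those came from an array table of 15207 probes. The treated rats (PNFLX, 4 arrays) were given 10 mg/kg of fluoxetine as pups, on postnatal days 2 to 21. Fluoxetine is an antidepressant that blocks the serotonin transporter. The CONTROL rats (4 arrays) were given a 5% sucrose vehicle over the same days. No allele or strain is named in the labels, and whether each array is 1 animal is not given, so any spread between arrays may be partly technical. The free-text descriptions of CONTROL 2, 3 and 4 mention fluoxetine, but their titles and source names say control, and the titles were followed. Array numbers here are those of the titles: CONTROL 3 and 4 are Control 4 and 5 in the source names and the sheets, and PNFLX 4 is PNFLX 5 there.

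Ribosomes are built in the nucleolus from ribosomal RNA and ribosomal proteins, with the help of assembly factors that leave before the finished subunits start translating. After a protein is completed the ribosome is split so that its subunits can be used again. The kinase complex mTORC1 ties this machinery to nutrients and growth factors by activating S6 kinase and by favouring the translation of ribosomal protein mRNAs. In neurons, local protein synthesis through this pathway is known for its part in lasting synaptic change.

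The members were selected by the contrast that they describe. A probe was listed when its mean PNFLX value lay at least 0.4 (log2) from the control median with an unadjusted p of at most 0.05. Differences between the groups are therefore given as descriptions with a standard error and without a test. Each standard error (SE) of a difference is the moderated one of the package limma, which also draws on the variance of the other fitted probes. It therefore does not correspond to the authors' p, which is unmoderated. By these criteria 1.48% of all probes were higher and 1.48% were lower, 225 each, and 3 members (Rps26, Abce1, Rps6kb1) were listed as higher and 4 (Gnl2, Dnajc21, Rps15, Rps15a) as lower. Nearest inside the limits was Rps6kb1, with a mean of 0.45 and p = 0.0472 in the authors' deposited table, followed by Abce1 with 0.81 and p = 0.0470. Just outside them, with a mean past 0.4, the smallest p of an unlisted probe was 0.05003, and 70 such probes, which have no name here, had a p of up to 0.06.

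Values are log2 signals from which the median CONTROL value of the same probe was subtracted, so CONTROL values centre on 0 by construction and no level can be compared between genes. Signals are background-subtracted intensities of the array scanner. PNFLX 2 and CONTROL 1 differed from the remaining arrays, with array SDs over all probes of 1.72 (PNFLX 2) and 2.01 (CONTROL 1), against 0.95 to 1.15 for the other PNFLX and 0.54 to 0.70 for the other CONTROL arrays. As values are centred on the CONTROL median, SDs of CONTROL arrays are not comparable with those of PNFLX arrays. Across probes, the departures of PNFLX 2 and CONTROL 1 from their own group's mean had a correlation of 0.85, and probes are no independent replicates. Member differences are therefore also given without these 2 arrays. Over the whole table, 18 probes passed limma's moderated test (Benjamini-Hochberg adjusted p under 0.05), 9 of them higher and 9 lower. At an unadjusted limma p under 0.05 there were 393 of the 15207 probes. That is fewer than the share of 0.05 that such a limit passes where no probe differs. Of 44 markers of 10 cell or tissue types, 4 were named in the sheets: Vcan (-3.24 ± 0.54, log2, SE), Rgs5 (-3.06 ± 0.77) and Cldn5 (-0.57 ± 0.29) as lower and the striatal gene Adcy5 (1.02 ± 0.28) as higher. The other striatal markers Drd1, Drd2, Adora2a and Ppp1r1b were not named. Nor were Pecam1, Flt1 and Pdgfrb, markers of endothelium and pericytes like Rgs5 and Cldn5, or Pdgfra and Cspg4, oligodendrocyte precursor markers like Vcan. The markers of neurons, astrocytes, oligodendrocytes and microglia were not among the named probes either, so the tissue label was not checked against them. The part of cell composition in the differences below was not tested.

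**Figure D1:**
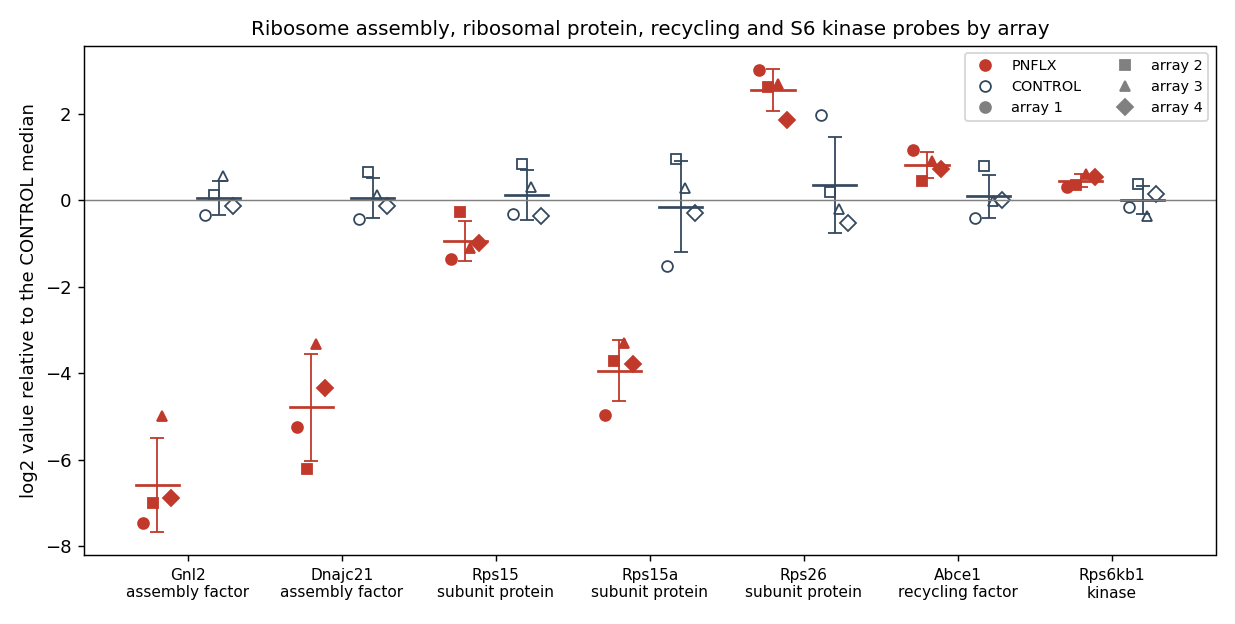
log2 value relative to the CONTROL median (vertical axis) for each gene in PNFLX (filled, left) and CONTROL (open, right), with the array number as the symbol. Horizontal lines are means and bars are SDs (n = 4 per group). PNFLX and CONTROL did not overlap for Gnl2, Dnajc21 and Rps15a, and overlapped for the other 4 genes.

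Both assembly factors were far lower in PNFLX. Gnl2 was 99.5-fold lower and Dnajc21 28.6-fold lower on the scale as deposited, and in neither did any PNFLX array reach the lowest CONTROL array. With 50 added to every signal, known here for the 450 listed probes only, the folds were 18.8 for Gnl2 and 10.1 for Dnajc21. Both act on the large subunit: Gnl2 is a nucleolar GTPase whose yeast counterpart Nog2 checks large-subunit precursors before they leave the nucleus. Dnajc21 carries a J domain, which stimulates Hsp70 chaperones, and its yeast counterpart Jjj1 helps release a shuttling factor from the precursor in the cytoplasm. In bulk tissue, fewer cells of a type and less RNA per cell cannot be told apart.

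Gnl2 (map position 5q36 in the sheets) had log2 values of -7.46, -7.01, -4.99 and -6.87 in PNFLX 1 to 4. In CONTROL 1 to 4 they were -0.34, 0.13, 0.56 and -0.13. All 4 PNFLX arrays were low, PNFLX 3 least so, and 4.65 (log2) separated the highest PNFLX from the lowest CONTROL value. The signals behind them were 4.96, 11.3, 34.2 and 9.04 in PNFLX 1 to 4, against 969.9, 1066, 1434 and 651 in CONTROL 1 to 4. On PNFLX 1, 2 and 4 these signals were 1.67, 1.24 and 6.71 times the lowest listed signal of the same array. The size of the fold therefore depends on how the background was subtracted. The difference was -6.64 ± 0.55 (log2, SE, n = 4 per group), and -6.63 ± 0.66 without CONTROL 1 and PNFLX 2. With 50 added to every signal it was -4.23 ± 0.25, still with the sign it had as deposited. That fit held only the 450 listed probes, so its SE is not comparable with that of the full table.

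Dnajc21 (2q16) stood at -5.25, -6.21, -3.33 and -4.33 in PNFLX 1 to 4. The CONTROL 1 to 4 values were -0.43, 0.65, 0.12 and -0.12. PNFLX 3 was again the least reduced array, while PNFLX 2 was the lowest here, and the groups were 2.90 (log2) apart. Signals were 15.3, 13.0, 71.7 and 34.9 in PNFLX 1 to 4, against 604, 1011, 702 and 436 in CONTROL 1 to 4. The gene differed by -4.84 ± 0.62 (log2, SE, n = 4 per group), and by -4.52 ± 0.52 without CONTROL 1 and PNFLX 2. With 50 added to every signal it differed by -3.34 ± 0.31, an SE from the listed probes only. On PNFLX 2 its signal was 1.43 times the lowest listed signal, so the low end is limited by background for this gene too.

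**Figure D2:**
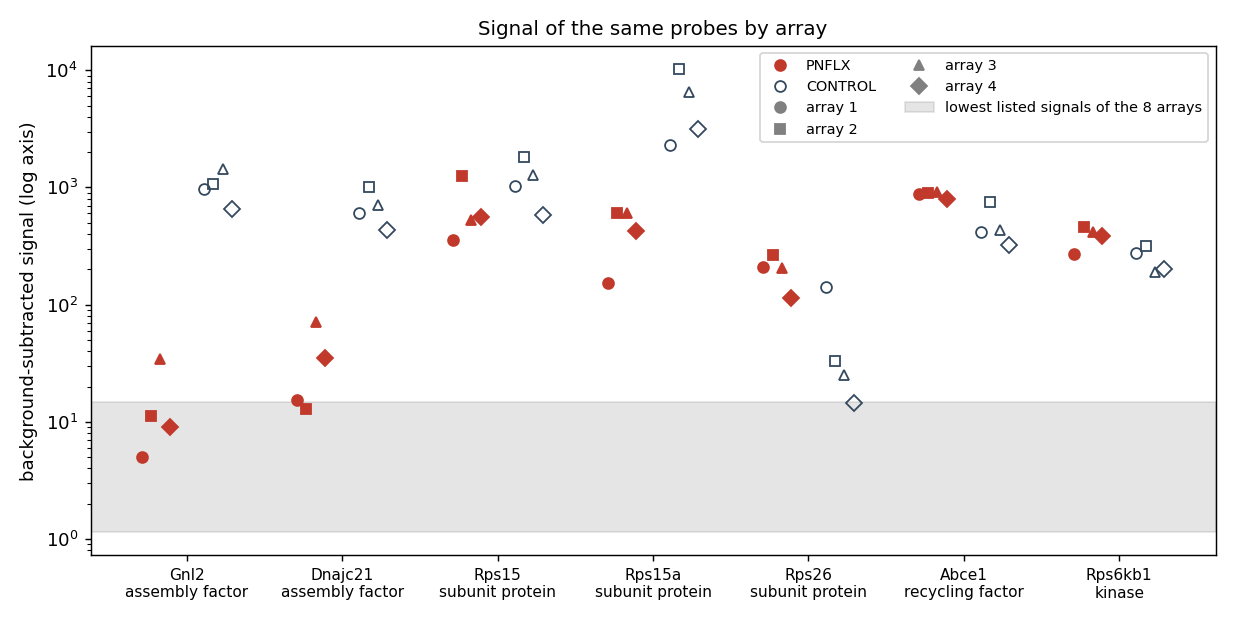
Background-subtracted signal (log axis) of the same probes in PNFLX (filled, left) and CONTROL (open, right), with the array number as the symbol. The grey band runs from 1.14 to 14.9, the range over the 8 arrays of each array's lowest listed signal, and 3 PNFLX signals of Gnl2, PNFLX 2 for Dnajc21 and CONTROL 4 for Rps26 lie within it.

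The 3 subunit proteins did not share a direction. Rps15a was 13.9-fold lower and Rps15 2.07-fold lower in PNFLX, while Rps26 was 4.56-fold higher (2.24-fold with 50 added to every signal). All belong to the small subunit: Rps15 lies close to the decoding site, Rps15a binds the ribosomal RNA of the body, and Rps26 sits where the mRNA leaves and contacts it upstream of the start codon. Ribosomal protein genes have many near-identical copies: the RefSeq table (GRCr8) holds 18 loci with a copy-like symbol of Rps15, 12 of Rps15a and 15 of Rps26, most of them pseudogenes. Probe sequences were not used here, so which copies each probe also binds is uncertain.

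Rps15a (1q35) had log2 values of -4.96, -3.72, -3.30 and -3.78 in PNFLX 1 to 4, and of -1.53, 0.94, 0.30 and -0.30 in CONTROL 1 to 4. CONTROL 1 was the lowest CONTROL array by over 1 log2 unit, yet 1.77 (log2) still lay between it and the highest PNFLX array. The signals, 154, 604, 602 and 423 in PNFLX 1 to 4 against 2323, 10229.7, 6552 and 3182 in CONTROL 1 to 4, were well above the low end of the arrays. Adding 50 to every signal left the difference at -3.61, against -3.79 ± 0.60 as deposited (log2, SE, n = 4 per group). Without CONTROL 1 and PNFLX 2 it was -4.33 ± 0.53.

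Rps15 (7q11) overlapped between the groups. Its log2 values were -1.36, -0.28, -1.09 and -0.98 in PNFLX 1 to 4, against -0.32, 0.85, 0.32 and -0.37 in CONTROL 1 to 4. PNFLX 2 lay within the CONTROL range, just above CONTROL 1 and CONTROL 4. Signals were 355, 1251, 532 and 563 in PNFLX 1 to 4, against 1027, 1831, 1271 and 578 in CONTROL 1 to 4. The difference of Rps15 was -1.05 ± 0.39 (log2, SE, n = 4 per group), and PNFLX 2 minus CONTROL 1 alone was 0.04. Without these 2 arrays it was -1.41 ± 0.36. The groups then no longer overlapped, as PNFLX 2 had been the only PNFLX array in the CONTROL range.

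Rps26, on the same band as Rps15 (7q11), was the one subunit protein that was higher. It had log2 values of 3.02, 2.62, 2.68 and 1.87 in PNFLX 1 to 4, against 1.97, 0.20, -0.20 and -0.54 in CONTROL 1 to 4. CONTROL 1 lay above PNFLX 4, and the other 3 CONTROL arrays lay below every PNFLX array. CONTROL signals were dim apart from CONTROL 1: signals were 211, 264, 207 and 114 in PNFLX 1 to 4, against 142, 33.1, 25.1 and 14.6 in CONTROL 1 to 4. Rps26 differed by 2.19 ± 0.58 (log2, SE, n = 4 per group) and by 2.70 ± 0.38 without CONTROL 1 and PNFLX 2. With 50 added to every signal the difference was 1.16 ± 0.27, an SE from the listed probes only.

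Of the 7 genes, 3 had groups that did not overlap, all of them lower in PNFLX. Over all probes, 1.14% were lower and 1.18% higher without overlap of the groups, and nothing is read from this because the members were selected on the same arrays. Without CONTROL 1 and PNFLX 2, groups were apart for 5 genes (the 4 lower ones and Rps26), against 6.34% of all probes lower and 5.94% higher. Rps15 had overlapped only through PNFLX 2 and Rps26 only through CONTROL 1, so their separation follows from the choice of arrays, made after seeing the data.

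Start sites are shown for the subunit genes Rps15 and Rps26, with Dnajc21 and Rps6kb1 beside them. The mRNAs of most ribosomal proteins begin with a C and a run of C or T. This is the terminal oligopyrimidine tract, through which mTORC1 controls their translation. The windows give 30 bases on each side of the transcription start in RefSeq (GRCr8), 5′ to 3′ on the gene's strand, with capitals for the tract that begins at that start. They are chr7:10068086-10068145 (minus strand) for Rps15, chr7:1643375-1643434 (minus) for Rps26, chr2:61173879-61173938 (minus) for Dnajc21 and chr10:71865182-71865241 (minus) for Rps6kb1.
Rps15: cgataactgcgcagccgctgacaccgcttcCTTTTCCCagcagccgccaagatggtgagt
Rps26: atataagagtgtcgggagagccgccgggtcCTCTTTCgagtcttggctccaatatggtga
Dnajc21: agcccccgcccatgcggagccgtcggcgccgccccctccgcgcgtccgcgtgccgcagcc
Rps6kb1: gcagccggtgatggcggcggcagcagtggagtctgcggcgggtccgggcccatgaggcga

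Rps15, which was lower in PNFLX, and Rps26, which was higher, both have such a tract at the start that the table gives, of 8 bases in Rps15 and 7 in Rps26. The Rps26 start is the first base of the annotated gene, whereas the Rps15 start lies 52 bases inside it, so the Rps15 tract need not be the end of every transcript. The search asked for C as the first transcribed base followed by at least 4 bases that are each C or T, on the transcribed strand only. It was met by 2.63% of 33469 windows in the table, by 24 of 64 windows of ribosomal protein genes (37.5%), and by 4 of 53 windows of assembly factors (7.55%). Dnajc21, Rps6kb1 and Abce1 did not meet it at the annotated start, the only base searched, and the Abce1 start lies 55 bases inside its gene. In Dnajc21 the annotated start is a G, directly followed by a run of C or T, so a start on the next base would meet it. The Rps15a window is not printed, as its start lies 1046 bases inside the annotated gene. It begins with an A there and did not meet the search, which says little of the usual start of the gene. A match describes the letters and says nothing of translation, which the arrays do not measure.

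Abce1 and Rps6kb1 differed little, and their log2 values overlapped between the groups. Abce1, 1.65-fold higher in PNFLX, is an iron-sulfur ATPase that splits the ribosome into its subunits after termination. Rps6kb1, 1.36-fold higher, encodes S6 kinase 1, which mTORC1 activates and which phosphorylates ribosomal protein S6 and several translation factors. Transcript amounts do not measure its activity.

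Abce1 (chromosome 19) had log2 values of 1.15, 0.46, 0.91 and 0.74 in PNFLX 1 to 4, against -0.40, 0.78, -0.01 and 0.01 in CONTROL 1 to 4. CONTROL 2 lay above PNFLX 2 and PNFLX 4. The signals themselves did not overlap, at 878, 899.9, 919.7 and 796 in PNFLX 1 to 4 against 418, 754, 437 and 325 in CONTROL 1 to 4. The overlap on the log2 scale arises with the authors' array constants, which ranged from -0.52 for CONTROL 4 to 0.50 for PNFLX 2. The difference was 0.72 ± 0.33 (log2, SE, n = 4 per group), and 0.67 ± 0.30 without CONTROL 1 and PNFLX 2.

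Rps6kb1 (10q26) stood at 0.30, 0.35, 0.62 and 0.54 in PNFLX 1 to 4, against -0.16, 0.38, -0.36 and 0.16 in CONTROL 1 to 4. CONTROL 2 exceeded PNFLX 1 and PNFLX 2. Its signals were 271, 464, 418 and 386 in PNFLX 1 to 4, against 276, 317, 191 and 199.9 in CONTROL 1 to 4, with PNFLX 1 below CONTROL 1 and CONTROL 2. The difference was 0.45 ± 0.26 (log2, SE, n = 4 per group), and 0.43 ± 0.27 without CONTROL 1 and PNFLX 2.

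Arrays did not contribute evenly. PNFLX 1 lay farthest from the control median among the PNFLX arrays in 5 of the 7 genes (Gnl2, Rps15, Rps15a, Rps26 and Abce1), against 37.3% of the 450 listed probes. PNFLX 3 was the nearest in Gnl2, Dnajc21 and Rps15a, against 20.9% of listed probes. PNFLX 2 was the nearest in 2 of the 7 genes (Rps15 and Abce1), against 43.8% of listed probes. Among CONTROL arrays, CONTROL 2 was the highest in 5 genes (Dnajc21, Rps15, Rps15a, Abce1 and Rps6kb1), against 33.6% of listed probes. PNFLX 2 minus CONTROL 1 had the sign of the full difference in 6 genes, the exception being Rps15. Both arrays are part of the full difference, and the share among other probes was not counted, so nothing is read from this.

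Other genes of the same pathways came from 6 lists, of which the sheets named few members. Counts are of named probes, since probes outside the sheets have no name here, and each named gene was selected on the same arrays. Beside the counts stands the share of all probes that was listed, 1.48% as higher and 1.48% as lower, and nothing is read from their comparison. Of 60 assembly factors 3 were named, all as lower (median difference -4.84, log2): Gnl2, Dnajc21 and Dkc1. Dkc1 encodes dyskerin, the pseudouridine synthase that modifies ribosomal RNA. Its log2 values were -3.51, -1.24, -1.18 and -2.25 in PNFLX 1 to 4, against -1.05, 0.49, -0.19 and 0.19 in CONTROL 1 to 4, a difference of -1.91 ± 0.61 (SE). The 4 PNFLX values of Dkc1 lay below CONTROL 1, with PNFLX 2 and PNFLX 3 close to it. Over all probes, most of them unlisted, the median difference was -0.07. It is not a like comparison for the medians of named genes, which had passed the authors' criteria.

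Of 33 small-subunit proteins 4 were named, 2 as higher and 2 as lower, with a median difference of 0.57 (log2), and of 46 large-subunit proteins 0 were named. The fourth small-subunit name was Rps27a, a ubiquitin fusion protein. Its probe was at 5.71 ± 1.09 (log2, SE), with log2 values of 4.70, 4.08, 5.52 and 4.89 in PNFLX 1 to 4, against -4.36, 0.47, 0.71 and -0.47 in CONTROL 1 to 4. CONTROL 1 was far below the other CONTROL arrays for this probe. The gene ID that the sheets give for it now belongs to the pseudogene Rps27a-ps1 in RefSeq, so which transcript the probe measured is uncertain.

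Of 30 genes of mTOR and S6 kinase signalling 2 were named, Rps6kb1 as higher and Pdcd4 as lower (median -2.07, log2). Pdcd4 encodes a translation inhibitor that binds the helicase eIF4A and that S6 kinase 1 marks for degradation in human cells. Pdcd4 had log2 values of -6.52, -4.99, -1.78 and -6.26 in PNFLX 1 to 4, against -0.16, 0.16, 0.65 and -1.82 in CONTROL 1 to 4, a difference of -4.60 ± 1.10 (SE). PNFLX 3 and CONTROL 4 overlapped, and the PNFLX 1 signal of Pdcd4 was 2.97, the lowest listed on that array. Of 47 initiation and elongation factors 1 was named, Eif4g3, a scaffold of the cap-binding complex, at -0.86 ± 0.29 (log2, SE). Abce1 was the 1 named gene of 11 in termination and recycling.

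**Figure D3:**
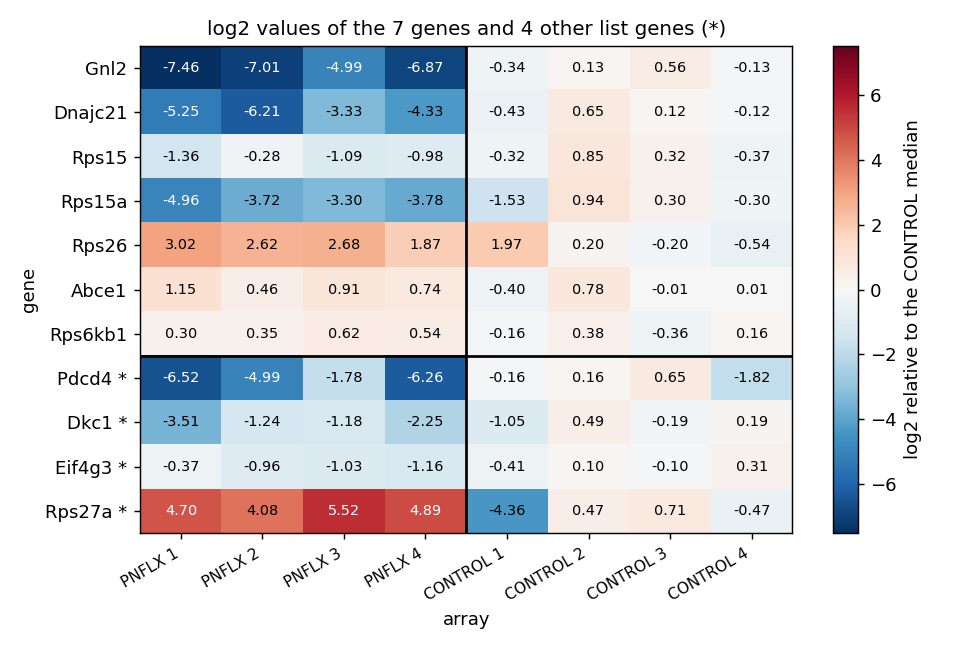
log2 values relative to the CONTROL median for the 7 genes (top) and the 4 further list genes named in the authors' sheets (bottom, marked by an asterisk), in PNFLX 1 to 4 (left) and CONTROL 1 to 4 (right). Blue is lower and red higher than the CONTROL median, and the large values lie in Gnl2, Dnajc21, Rps15a, Pdcd4 and Rps27a.

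For 6 of the genes the listed gene with the most similar values is given, by the mean absolute difference of log2 values over the 8 arrays. It was Dkk3 for Gnl2 (0.60, log2), Ralb for Rps15a (0.49) and Hhatl for Rps15 (0.30). For the higher genes it was Fap for Rps26 (0.33), Med17 for Rps6kb1 (0.13) and Ets1 for Abce1 (0.09). None of these 6 had another of the 7 as its most similar gene. Dkk3 differed by -6.15 and had PNFLX values from -8.32 to -2.73, a wider range than the -7.46 to -4.99 of Gnl2.

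**Figure D4:**
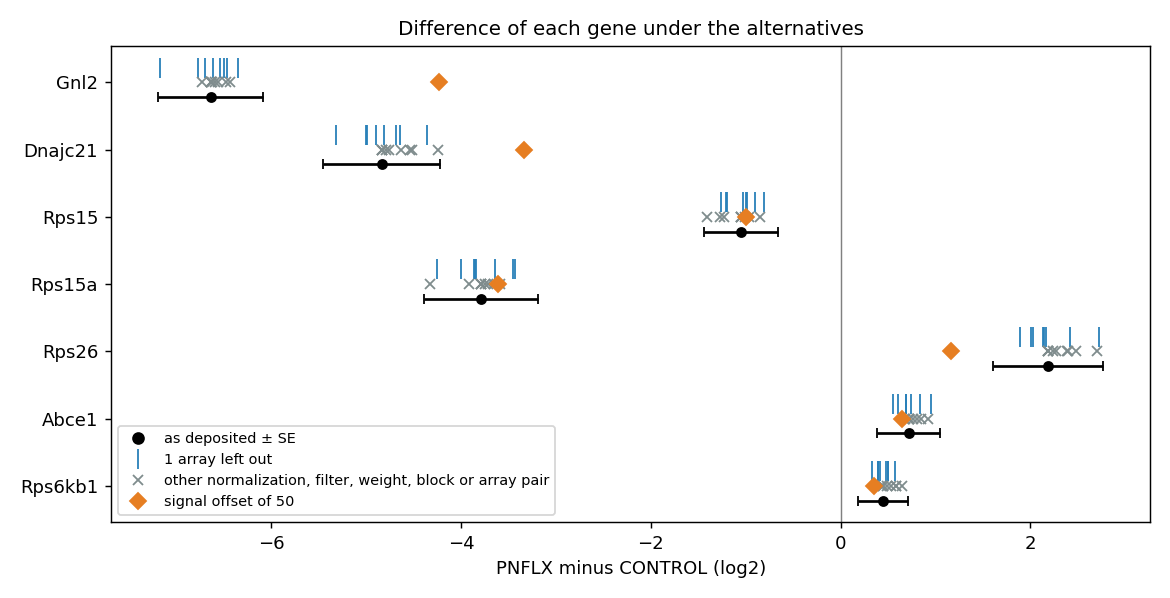
PNFLX minus CONTROL (log2) of each gene as deposited (black point, bar for SE), with each array left out in turn (blue ticks), with 50 added to every signal (orange diamond) and under the other alternatives (grey crosses). No gene changed sign, but the blocks and the variance filter cannot change a difference, and all alternatives reuse the arrays that selected the genes. The offset moved Gnl2 to -4.23, Dnajc21 to -3.34 and Rps26 to 1.16.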

How the data were processed

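Total RNA of whole mPFC (500 ng) was labelled with Cy3 and hybridised to a custom Agilent 8x15k rat array in 1 colour, per the labels' protocols. The deposited value table holds log2 values whose CONTROL median is 0 for each probe. The authors' sheets hold the same log2 values, an unadjusted p-value and the background-subtracted signal intensity, per the file headers. Which software scaled the arrays is not given in the sources used here. Without detection flags, dim probes were kept. The deposited log2 value equals log2 signal minus 1 constant per array and 1 per probe, and the p-values in the deposited sheets match an unmoderated linear model (natural logs within 7.49e-07).

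limma 3.58.1 in R 4.3.3 (lmFit, eBayes) was fitted to all 15207 probes, PNFLX minus CONTROL, without covariates, and tested on simulated data. The fits with an offset and without array constants used the 450 listed probes only. Their SEs therefore rest on probes that were selected for a small p. The number of arrays limits the precision. Members matched RefSeq (GRCr8) by gene ID, 7 of 7, and promoter windows came from RefSeq. Members, lists and alternatives were chosen with earlier results of these data known. Named were all members, list genes in the sheets and the most similar listed gene of each member, of which 1 is not reported here. CONTROL 1 and PNFLX 2 were left out, or taken as a block, and signals were used without array constants, after seeing the data. Other alternatives were quantile normalization, equal medians or 75th percentiles, dropping the 25% least variable probes, an offset of 50, array weights, a replicate block, a variance trend, no moderation and each array left out.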

Additional observations from a re-analysis of the deposited data

Results flagged for a closer look

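The array SD of CONTROL 1 over all probes was 2.01 (log2), against 0.54 to 0.70 for the other 3 CONTROL arrays, and its gap to the nearest of them was 0.889 of the group's range, above Dixon's critical value for 4 samples. This was the single case among 18 groups of 4 arrays examined (7 genes, array medians and array SDs, each in PNFLX and CONTROL), and chance gives about 0.9. In no member gene was 1 array that far from the other 3 of its group.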

How the results depend on the processing

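The 7 member differences kept their sign under every alternative run, though Rps6kb1 had no value in the variance filter, which dropped its probe. The variance filter, the replicate block and the block of CONTROL 1 and PNFLX 2 left the differences unchanged by construction. The other alternatives reuse the arrays on which the members were selected, so a kept sign is no independent support. An offset of 50 on the signals moved Gnl2 to -4.23, Dnajc21 to -3.34 and Rps26 to 1.16 (log2), as it raises the dim group. With 1 array left out, Gnl2 lay between -7.17 and -6.34, Dnajc21 between -5.32 and -4.36, Rps15a between -4.25 and -3.43, Rps15 between -1.27 and -0.81, Rps26 between 1.89 and 2.73, Abce1 between 0.55 and 0.95, and Rps6kb1 between 0.33 and 0.57. The authors' criteria were met by 7 members as deposited. Quantile normalization, equal medians and equal 75th percentiles each left 4 (Gnl2, Dnajc21, Rps15a and Rps26, which met them in all 18 alternatives), and leaving out 1 array left 4 to 6, with fewer arrays in the fit. The 4 came without CONTROL 3, PNFLX 1, PNFLX 3 or PNFLX 4. Rps15 met the criteria in 9 of 18 alternatives, Abce1 in 6 of 18 and Rps6kb1 in 3 of the 17 that kept its probe. Over all probes the criteria gave 450 as deposited, 298 with quantile normalization, 1322 with array weights, 783 without CONTROL 1 and PNFLX 2, 888 with these as a block, and 352 to 672 with 1 array left out. limma called 18 probes as deposited, 10 with quantile normalization, 4 with equal 75th percentiles, 150 with array weights, 40 without CONTROL 1 and PNFLX 2, 43 with these as a block, and 2 to 26 with 1 array left out (2 without CONTROL 2 or PNFLX 4, 3 without CONTROL 3, 4 without CONTROL 4). A variance trend gave 0 calls (323 probes at an unadjusted p under 0.05 in limma, against 393 as deposited). Both counts are fewer than the share of 0.05 of all probes that this limit passes where no probe differs. The trend was fitted on values relative to the CONTROL median, so it does not follow the signal level. The cause of the shifts in the number of calls was not tested. Whether the title numbers pair the arrays is not given. Deviations of same-numbered arrays correlated at -0.21, -0.67, 0.44 and 0.35 across probes, and not every array correlated best with its own number. Deviations from a group mean of 4 arrays depend on each other, so these correlations cannot decide whether arrays were paired. The source numbers differ from the title numbers, and by them CONTROL 3 and PNFLX 3 do not share a number. The highest correlation was 0.85, of PNFLX 2 with CONTROL 1. With the number as a replicate block limma called 0 probes (346 at an unadjusted p under 0.05), and 5 members and 366 of all probes met the authors' criteria. Dim signals limit the size of the differences of Gnl2, Dnajc21 and Rps26.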

Other observations

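Mitochondrial ribosomal proteins, which form the separate ribosome of mitochondria, were listed in both directions. These genes and Rps6kl1 and Tpt1 were named after their values were seen, and no test is given. Mrpl11 was at 1.56 ± 0.39 (log2, SE, n = 4 per group), with PNFLX values from 1.24 to 1.68 and CONTROL values from -1.05 to 0.54. Mrps7 was at 1.46 ± 0.43, with PNFLX values from 1.04 to 1.68, CONTROL values from -0.80 to 0.83, and median signals of 51.8 in PNFLX and 18.4 in CONTROL. Mrpl24 was at -0.58 ± 0.25, and its PNFLX 1 value of -0.27 lay next to its CONTROL 1 value of -0.26.

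Tpt1, whose mRNA is a known oligopyrimidine-tract mRNA like those of the ribosomal proteins, was at -2.39 ± 0.55 (log2, SE), with PNFLX values from -3.47 to -1.38 and CONTROL values from -1.08 to 0.70. Rps6kl1, named for its likeness to S6 kinases, was at -0.54 ± 0.26, with PNFLX values from -0.89 to -0.21 and CONTROL values from -0.03 to 0.20.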
